A study of Mus musculus with 4 samples.

Results

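The Cd209a-positive cells described here were barcodes from mouse bone marrow chosen by their own transcript counts. Cd209a encodes a mouse relative of the human C-type lectin DC-SIGN. A cell had to hold at least 500 detected genes and 1000 unique molecular identifiers (UMIs, each standing for 1 captured RNA molecule), with at most 10% of them mitochondrial. Beyond that filter it needed at least 2 Cd209a UMIs, Camp and Ngp together below 0.5% of its UMIs, and no UMI of Cd79a or Siglech, which removed neutrophil-like, B-cell-like and plasmacytoid-like barcodes. These conditions were met by 513 of the 31209 retained cells. The cells had been proposed as monocyte-derived dendritic-like cells marked by Cd209a, C1qa and H2-Aa. H2-Aa was present in 88.1% of them, while C1qa was present in only 9 cells, so the C1qa part of that description is not met. They are therefore called Cd209a-positive cells and given no cell type name.

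All 4 libraries came from lethally irradiated mice that had received equal parts of CD45.1+ Tet2+/+ and CD45.2+ Tet2+/- marrow, and only the Tet2+/- donor cells were sequenced. After 1 month of engraftment the mice were treated for 7 months. The Control group received PBS injections and 100 mM NaCl in the drinking water. The Butyrate group received PBS and 100 mM sodium butyrate, the B12 group 0.29 µg of vitamin B12 by repeated intraperitoneal injection each week with NaCl, and the B12+Butyrate group both B12 and butyrate. Viably frozen marrow from 3 mice per group was pooled, sorted for live (DAPI-) CD45.2+ cells and recombined as equal parts of cKit+ and cKit- cells. Each group is therefore 1 library with no replicate, cells of 1 library are not independent samples, and the sort sets the share of any cell type. Host cells and cells of the Tet2+/+ competitor were not in these libraries, and no library is a Tet2-intact control.

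Dendritic cells take up material, process it and display peptides on MHC class II molecules to CD4 T cells. In mouse marrow they arise from Flt3-dependent progenitors, and conventional dendritic cells are divided into a type that carries Xcr1 and Clec9a and depends on Irf8, Batf3 and Id2, and a type that depends on Irf4 and carries Clec10a. Classical monocytes, which carry Ly6c2, Ccr2 and Csf1r, can also acquire MHC class II and Cd209a. Complement C1q (C1qa, C1qb, C1qc) is made mainly by tissue macrophages, which in marrow also carry Vcam1 and Spic.

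The 4 deposited matrices held 34670 barcodes and 449267997 UMIs, with a median of 11583.5 to 12544.5 UMIs per retained cell and library. The Cd209a-positive cells had medians of 10447.5, 11933.5, 10102 and 12198 UMIs per library, where every series of 4 values is ordered as Control, Butyrate, B12, B12+Butyrate. Their summed UMIs were 1727338, 2669874, 1083620 and 1298380, so a gene with no UMI could still have been present at up to 1.74, 1.12, 2.77 and 2.31 CPM (UMIs of a gene scaled to a library sum of 1000000; 3 counts). Intervals are exact 95% intervals (Clopper-Pearson for shares) and cover counting error only. Each pair of libraries shared 8 to 23 retained barcodes; no barcode was a Cd209a-positive cell in more than 1 library, and 4 of these cells shared their barcode with a retained cell elsewhere. A search for doublets marked 3, 6, 4 and 1 of the Cd209a-positive cells.

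Cd209a itself, which selected the cells, was at 744, 521, 628 and 744 CPM in the 4 sums. Around the threshold, the 68 cells with exactly 2 Cd209a UMIs had 2830.2 CPM of H2-Aa and 815 CPM of Ly6c2 over all libraries, and 126 otherwise eligible cells with 1 UMI had 2113 and 893 CPM. The 162 cells with 10 or more Cd209a UMIs had 7369 CPM of H2-Aa, 617 CPM of Clec10a and 282 CPM of Ly6c2. Cells rich in Cd209a thus carried more H2-Aa and less Ly6c2 than cells near the threshold, while their median depths were close (10745.5 UMIs at 2 Cd209a UMIs and 11244.5 at 10 or more).

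The Butyrate library held the highest share of Cd209a-positive cells. They numbered 136 of 8752 retained cells in Control (1.55%, interval 1.31 to 1.84), 190 of 6793 in Butyrate (2.80%, 2.42 to 3.22), 93 of 8048 in B12 (1.16%, 0.93 to 1.41) and 94 of 7616 in B12+Butyrate (1.23%, 1.00 to 1.51). B12 and B12+Butyrate lay within each other's intervals, and Butyrate lay above the other 3. The ratio of shares was 0.744 for B12 to Control (0.572 to 0.966) and 0.441 for B12+Butyrate to Butyrate (0.345 to 0.564), a pair of comparisons that share no library. It was 1.80 for Butyrate to Control (1.45 to 2.24) and 1.07 for B12+Butyrate to B12 (0.803 to 1.42). With 1 library of 3 pooled mice per group, differences between mice and between treatments cannot be told apart. A share of sorted cells also moves when another cell type becomes more or less frequent. Over cells with Camp and Ngp below 0.5% the ratios were 0.932 (0.718 to 1.21) and 0.554 (0.434 to 0.707) for the first pair of comparisons. They were 1.78 (1.43 to 2.21) and 1.06 (0.797 to 1.40) for the second. The interval of B12 to Control then included 1.

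**Figure D1:**
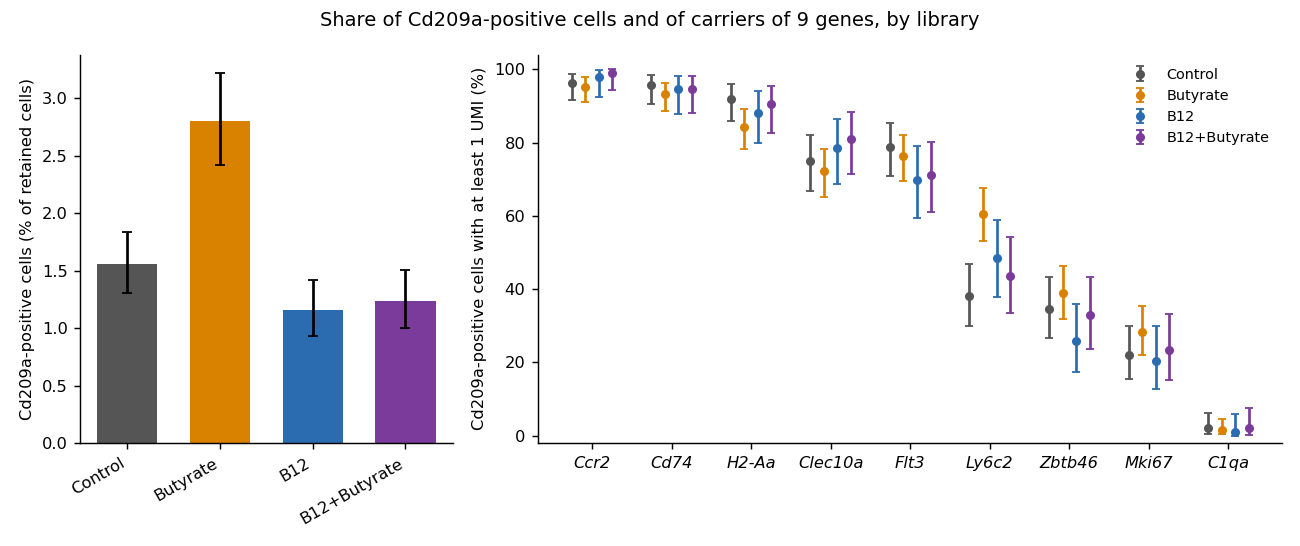
Left, Cd209a-positive cells as a percent of retained cells in each library (bars, exact 95% intervals). Right, percent of Cd209a-positive cells with at least 1 UMI of 9 genes in each library (points, exact 95% intervals). Butyrate has the tallest bar (2.80%), Ccr2, Cd74 and H2-Aa are found in most cells of every library, and C1qa lies near 0.

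C1qa, a subunit of complement C1q, was found in 3, 3, 1 and 2 Cd209a-positive cells, or 1.75% of all 513 (0.81 to 3.30). The shares by library were 2.21, 1.58, 1.08 and 2.13%. In B cells (Cd79a at 2 UMIs or more, median 5321 UMIs) and neutrophils (Camp and Ngp at 2% of UMIs or more, median 15849 UMIs), which should lack the gene, 0.283% and 0.168% of cells held a C1qa UMI. The share in Cd209a-positive cells (median 11267 UMIs) lay above both, and the intervals did not overlap. At 4000 UMIs per cell the shares were 1.19% (6 of 503 cells, 0.439 to 2.58), 0.289% (0.125 to 0.568) and 0.0961% (0.0512 to 0.164), and the interval then overlapped that of B cells. Cells with Flt3 and H2-Aa but no Cd209a, compared below, held C1qa in 2.26% of cells (1.13 to 4.01). The 9 cells held 82 C1qa UMIs, of which 73 (89.0%) were in 5 cells, and 7 of the 9 also held C1qb or C1qc. The cell with the most C1qa, from the B12+Butyrate library, held 31, 30 and 27 UMIs of C1qa, C1qb and C1qc beside 7 of Cd209a, 157 of H2-Aa and none of Ly6c2. None of the 9 carried Ly6c2, and each held at least 44 UMIs of H2-Aa. Over all retained cells, 119 held 2 or more C1qa UMIs, and 6 of these were Cd209a-positive cells by the rule.

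Markers of other cell types were present at different levels. Of 12 macrophage markers, Mertk, Cd5l and Timd4 had no UMI in any library, and the list summed to 282, 237, 379 and 377 CPM, with Mrc1 and Adgre1 as its only members at 20 CPM or more over all libraries together; in B12+Butyrate, C1qa, C1qb and C1qc reached 24.6, 26.2 and 20.8 CPM. Monocytes, as defined below, had 218, 199, 198 and 233 CPM of the list. Of its 6 genes tested against them, 5 were called higher (C1qa, C1qb, C1qc, Cd163, Mrc1) and 1 lower (Adgre1). A wider list of complement and macrophage genes had 14 genes tested, with a median log2 fold change of -0.41. Of these, 4 were called higher (C1qa, C1qb, C1qc, Cd163) and 6 lower (Apoe, Hmox1, Adgre1, Maf, Trem2, C5ar1). Of 6 plasmacytoid dendritic cell markers left after Siglech, the sum was 449.8, 594, 436 and 489 CPM against 283, 293, 245 and 283 CPM in monocytes, with Klk1 at 0, and 1 of 3 tested was called higher (Ccr9). Bst2, an interferon-inducible surface protein of that list, was at 213, 276, 215 and 229 CPM. Of 6 B-cell markers left after Cd79a, Ms4a1 and Vpreb3 were at 0, and the sum was 26.1, 26.6, 334 and 16.2 CPM; in B12, 351 of the 353 Igkc UMIs came from 1 cell. T-cell markers summed to 12.7, 1.12, 18.5 and 27.7 CPM and natural killer markers to 15.1, 43.4, 24.9 and 1.54 CPM, with Ncr1 and Gzma at 0; monocytes had 6.81, 13.3, 8.24 and 12.6 CPM of the latter list. Progenitor markers (Kit, Cd34, Mpo, Elane, Prtn3, Ctsg) summed to 1105, 1757, 1106 and 152 CPM, and 80.1 to 94.9% of the Mpo UMIs of a library lay in 5 cells.

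Neutrophil markers left after Camp and Ngp summed to 2821, 793, 4379 and 414 CPM, higher without butyrate than with it. The same held in other classes of these libraries. Monocytes had 2264, 613, 2524 and 1048 CPM of the list. The Flt3-positive cells without Cd209a, compared below, had 2236, 360, 1377 and 404 CPM. Of the Cd209a-positive cells, 6, 1, 3 and 0 held S100a8 and S100a9 above 1% of their UMIs, and these held 79.3, 37.8, 88.5 and 0% of the class's UMIs of both genes; 6 of the 10 were marked as doublets. At 4000 UMIs per cell, S100a8 was present in 46.5% of Cd209a-positive cells and 61.1% of B cells, at a lower share in the former. Mpo was present in 10.5% and 10.3%.

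MHC class II genes were the leading group against classical monocytes. The comparison summed UMIs per library for the 513 cells and for 1943 noncycling monocytes (655, 457, 405 and 426; at least 3 Ly6c2 UMIs, Csf1r and Ccr2 present, and no Cd209a, Flt3, Mki67 or Top2a). It was fitted with edgeR's quasi-likelihood test with library as a block, over 10782 genes, and a gene was called at a Benjamini-Hochberg adjusted p below 0.05 and at least 2-fold. Called higher were 1021 genes (9.47%) and lower 658 (6.1%). Of 11 MHC class II presentation genes, 10 were higher, with a list median log2 fold change of 4.35 against 0.00 over all genes. The 4 libraries differ in treatment and are the only independent samples in this test. Genes used by either gate were left out, but genes that follow the gate genes were not.

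H2-Aa, the alpha chain of I-A, was at 5737, 4370.2, 5333 and 5959 CPM in Cd209a-positive cells and 94.3, 105, 146 and 119 CPM in monocytes. The classes did not overlap, with a per-library log2 ratio of 5.42 ± 0.31 (SD, n = 4 libraries) and log2 fold change 5.49, adjusted p = 5.4e-15. H2-Eb1, the beta chain of I-E, was at 5134, 3617, 4414 and 5053 CPM against 56.9, 51.2, 80.9 and 62.8 CPM (log2 fold change 6.14, adjusted p = 2.8e-15). Cd74, the invariant chain that escorts class II molecules, was at 9650.1, 7501, 9135 and 9861 CPM against 349, 474, 420.5 and 477 CPM (log2 fold change 4.35, adjusted p = 5.4e-14). Each of the 3 genes was lowest in the Butyrate library among the Cd209a-positive cells. Ciita, the transactivator of these promoters, was at 299, 209, 255 and 276 CPM against 15.8, 16.7, 16.5 and 7.97 CPM (log2 fold change 4.14, adjusted p = 8.3e-12). H2-Oa, which with H2-Ob forms the DO modulator of peptide loading, was at 86.3, 49.4, 42.5 and 70.9 CPM against 0.771, 1.15, 1.06 and 1.75 CPM (log2 fold change 5.73, adjusted p = 1.5e-11). The gene of the list that was not called was Ctss, the lysosomal protease that trims the invariant chain, at 1051, 775, 1004 and 916 CPM against 1236, 1117, 1321 and 1161 CPM (log2 fold change -0.42, adjusted p = 1.5e-05). Thus the protease was present in both classes and differed by less than 2-fold, unlike the class II chains.

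Class II promoters carry an array of conserved boxes, among them a Y box with an inverted CCAAT sequence bound by NF-Y. The 250 bases upstream of the start are shown for the 3 list genes whose window held the letters CTGATTGG. They come from RefSeq on GRCm38.p6, which is not the build of the counts, for H2-Aa at chr17:34287824-34288073 (minus strand), H2-Eb1 at chr17:34305617-34305866 (plus strand) and H2-Oa at chr17:34092129-34092378 (plus strand). Each is written 5′ to 3′ on the gene's strand in lower case, with the motif in capitals.
H2-Aa: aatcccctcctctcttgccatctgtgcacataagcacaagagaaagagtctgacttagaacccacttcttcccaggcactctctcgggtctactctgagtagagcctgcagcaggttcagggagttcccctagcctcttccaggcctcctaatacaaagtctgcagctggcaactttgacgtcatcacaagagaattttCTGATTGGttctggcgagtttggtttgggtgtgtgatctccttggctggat
H2-Eb1: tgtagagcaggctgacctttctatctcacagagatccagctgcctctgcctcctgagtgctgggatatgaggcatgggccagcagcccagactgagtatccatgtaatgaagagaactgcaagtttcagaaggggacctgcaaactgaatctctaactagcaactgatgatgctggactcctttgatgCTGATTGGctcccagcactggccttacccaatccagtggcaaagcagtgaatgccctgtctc
H2-Oa: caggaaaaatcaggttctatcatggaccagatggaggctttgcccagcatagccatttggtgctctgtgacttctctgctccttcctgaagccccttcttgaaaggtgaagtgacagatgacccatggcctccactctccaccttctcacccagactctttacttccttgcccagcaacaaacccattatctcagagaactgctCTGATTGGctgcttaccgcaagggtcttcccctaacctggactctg
The motif began 51, 62 and 46 bases before the start of H2-Aa, H2-Eb1 and H2-Oa. Of the 11 list genes, 8 matched the promoter table, and 3 of the 8 held the motif on either strand (CTGATTGG or CCAATCAG). Among all 32851 windows of that length, 1258 (3.83%) held it, or 1198 of 27025 genes (4.43%). The 3 genes separated the cells from monocytes and, below, the cells from each other. So did H2-DMb2 and H2-Ob, whose windows did not hold the motif. A match of letters is a description and not a measured site.

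Conventional dendritic cell markers were also higher than in monocytes: 8 of 8 tested, with a median log2 fold change of 3.13. Zbtb46, a transcription factor of the conventional dendritic lineage, was at 56.7, 56.6, 42.5 and 53.1 CPM in Cd209a-positive cells and 0.642, 0.192, 0.634 and 0.389 CPM in monocytes (log2 fold change 6.65, adjusted p = 9.3e-12). Itgax, which encodes CD11c, was at 107, 55.8, 56.3 and 70.1 CPM against 1.03, 0.77, 0.422 and 0.389 CPM (log2 fold change 6.66, adjusted p = 9.9e-13). Dpp4, which encodes the peptidase CD26, was at 247, 204, 251 and 216 CPM against 26.3, 37.5, 28.7 and 32.1 CPM (log2 fold change 2.83, adjusted p = 2.2e-11). No library of one class overlapped the other for these 3 genes. Flt3, the receptor of the dendritic growth factor, was a gate gene and was not tested; it was present in 74.9% of Cd209a-positive cells, at 188, 159, 162 and 148 CPM. Irf4 was at 39.9, 43.8, 36.9 and 34.7 CPM against 12.6, 20.4, 13.7 and 16.5 CPM (log2 fold change 1.26, adjusted p = 3.0e-06). Batf3 was at 78.7, 55.8, 79.4 and 73.9 CPM against 14.9, 15.4, 20.9 and 20.2 CPM (log2 fold change 1.98, adjusted p = 3.2e-09). Of the 19 transcription factors tested, 4 were higher (Irf4, Batf3, Zbtb46, Bhlhe40) and 4 lower, among them Maf, Nr4a1 and Cebpb.

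Classical monocyte markers outside the gate were lower in Cd209a-positive cells, 5 of 5 tested (among them F13a1, Fn1, Vcan and Chil3), with a median log2 fold change of -2.35. Vcan, which encodes the matrix proteoglycan versican, was at 5.21, 7.49, 5.54 and 3.85 CPM against 391, 199, 504 and 201 CPM (log2 fold change -5.69, adjusted p = 8.3e-13). Chil3, a chitinase-like secreted protein, was at 50.9, 42.3, 37.8 and 14.6 CPM against 1303, 806, 822 and 879 CPM (log2 fold change -4.71, adjusted p = 8.3e-13). Both were lower in every library, without overlap. Cebpb, a transcription factor of monocyte survival, was at 141, 146, 229 and 158 CPM against 826, 759, 851 and 761 CPM (log2 fold change -2.33, adjusted p = 8.3e-12). Ccr2 and Csf1r, which the monocyte gate required, were present in 96.7% and 64.5% of Cd209a-positive cells, at 999.8, 824, 1159 and 967 CPM and 128, 112, 119 and 122 CPM. The high-affinity Fc receptor gene Fcgr1 was at 37.6, 32.96, 48.9 and 30.04 CPM against 69.6, 65.2, 76.9 and 56.9 CPM, under 2-fold lower (log2 fold change -0.92).

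The uptake receptors divided. Of 14 lectins and scavenger receptors tested, 5 were higher than in monocytes (Cd209d, Clec10a, Mgl2, Mrc1, Clec4b1) and 4 lower (Clec4a2, Clec4d, Clec4e, Msr1), with a median log2 fold change of -0.53. Clec10a, a galactose-binding lectin, was at 453, 270.1, 502 and 406 CPM against 36.6, 37.7, 48.6 and 38.7 CPM (log2 fold change 3.27, adjusted p = 1.7e-12). Mrc1, the mannose receptor, was at 188, 113, 245 and 225 CPM against 5.91, 15.6, 6.97 and 13.99 CPM (log2 fold change 4.12, adjusted p = 1.4e-09). Both were lowest in Butyrate among the Cd209a-positive cells and did not overlap with monocytes. Cd209d, a close relative of Cd209a, was at 17.4, 43.8, 35.99 and 13.9 CPM and had no UMI in monocytes, so that it was at least 229-fold higher (floor of 3 counts over all monocytes); reads of such similar genes may be assigned uncertainly. Clec4a2 was at 123, 111, 173 and 110.1 CPM against 234, 242, 273 and 257 CPM (log2 fold change -1.03, adjusted p = 8.0e-08).

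Among genes of no list, the largest differences at 100 CPM or more included those of Klrd1, Ccnd1 and Adgrl3. Klrd1, which encodes the CD94 chain of natural killer receptors, was at 227, 137, 168 and 156 CPM in Cd209a-positive cells and 1.03, 2.70, 0.424 and 0.195 CPM in monocytes (log2 fold change 7.24, adjusted p = 3.0e-12). Of the natural killer markers, Ncr1 and Gzma were at 0 in the Cd209a-positive cells, and Nkg7, a granule protein and the only one tested, was called higher than in monocytes, at 15.1, 43.2, 24.1 and 1.54 CPM against 5.93, 9.66, 7.42 and 9.36 CPM (log2 fold change 1.29, adjusted p = 0.0085), although it was at a lower level in B12+Butyrate; the part of natural killer cells in these values was not tested. Ccnd1, which encodes cyclin D1, was at 147, 148, 115 and 155 CPM against 2.58, 1.35, 0.847 and 0.78 CPM (log2 fold change 6.48, adjusted p = 4.7e-13). Other leading genes were Adgrl3 (an adhesion receptor), Fmnl2 (a formin), Ust (a sulfotransferase) and H3c3 (a replication-linked histone), with log2 fold changes of 5.19, 4.99, 4.56 and 6.06. On the lower side, Apoc2 and Lpl, a cofactor and its lipoprotein lipase, had log2 fold changes of -4.82 and -3.69, beside Mgst1, Plcb1, Arhgef37, Hopx, Arhgap24 and F10 between -3.39 and -3.30. Of 18 S and G2/M phase genes, 16 were higher, but the monocyte gate removed cycling cells; with Cd209a-positive cells lacking Mki67 and Top2a, none was called higher.

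**Figure D2:**
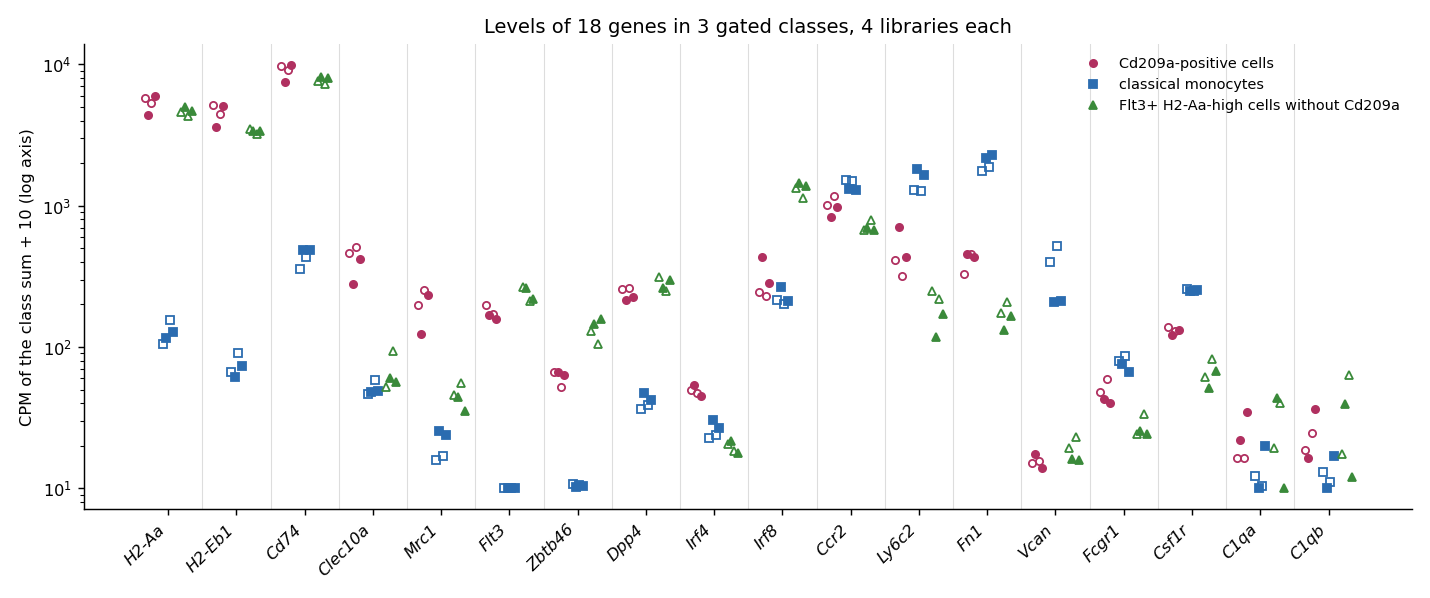
Levels of 18 genes (CPM of the class sum plus 10, log axis) in Cd209a-positive cells (circles), classical monocytes (squares) and Flt3-positive H2-Aa-high cells without Cd209a (triangles). Each point is 1 library, filled for the 2 libraries with butyrate. H2-Aa, Cd74 and Zbtb46 lie far above monocytes, Vcan and Fn1 below them, and Clec10a and Mrc1 lie above both other classes.

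A closer comparison set them beside 487 cells with H2-Aa at 10 UMIs or more, Flt3 present and no Cd209a (152, 140, 101 and 94 cells), other filters as in the rule. These had median depths of 13675, 14653.5, 12249 and 15103 UMIs. The same test over 9557 genes called 260 genes higher in Cd209a-positive cells (2.72%) and 239 lower (2.5%). Of 10 MHC class II presentation genes tested, 0 were called in either direction by edgeR because none reached 2-fold. An adjusted p below 0.05 was reached by 5 (the same number as at an unadjusted p below 0.05), with H2-Eb1, H2-DMa, Cd74 and Ctss higher (log2 fold changes 0.48, 0.23, 0.26 and 0.70) and H2-Ob lower (-0.87). The gate required H2-Aa and Flt3 in the comparison cells only. Cd74 was at 9650.1, 7501, 9135 and 9861 CPM in Cd209a-positive cells and 7622, 8157, 7205 and 7969 CPM in the comparison cells (log2 fold change 0.26, adjusted p = 0.0085), with overlapping libraries. No class II gene differed by 2-fold or more from this class, where 10 had done so from monocytes. The gate chose the comparison cells for H2-Aa, so a high class II level in them was set in advance. This contrast is therefore a description, and the difference between the 2 comparisons was not tested.

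Most uptake receptors tested were higher than in this class. Of 12 tested, 9 were higher (Cd209d, Clec10a, Mgl2, Mrc1, Clec4a1, Clec4a2, Clec4a3, Clec4b1, Clec7a) and 2 lower (Ly75, Cd36), with a median log2 fold change of 1.46 against -0.00 over all genes. Clec10a was at 453, 270.1, 502 and 406 CPM against 41.8, 50.00, 83.5 and 46.8 CPM (log2 fold change 2.93, adjusted p = 3.2e-10). Mrc1 was at 188, 113, 245 and 225 CPM against 36.1, 34.3, 45.2 and 25.00 CPM (log2 fold change 2.43, adjusted p = 1.3e-08). Clec7a, which encodes the beta-glucan receptor dectin-1, was at 223, 175, 146 and 186 CPM against 58.1, 56.9, 87.7 and 67.3 CPM (log2 fold change 1.51, adjusted p = 5.5e-07). None of the 3 genes overlapped between the classes. The classes were chosen by Cd209a, and genes that follow it were not left out. Clec10a rose with Cd209a, from 117 CPM in cells with 1 Cd209a UMI to 617 CPM at 10 or more. How far the choice by Cd209a set these differences was not tested. Of 6 Fc receptor genes, Fcgr1, Fcgr4 and Fcer1g were higher; Fcer1g, the shared signalling chain, was at 1523, 1322, 1559 and 1392 CPM against 714, 654, 867 and 602 CPM (log2 fold change 1.09, adjusted p = 6.8e-09).

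Transcription factors of the Xcr1-type dendritic cell were lower. The comparison gate took cells with Flt3 and H2-Aa and removed those with Cd209a. Clec9a was present in 60.4% and Clec10a in 21.4% of the cells it left, against 34.5% and 75.6% of Cd209a-positive cells. How far this gate set the differences from that class was not tested. Irf8 was at 237, 419.9, 218 and 276 CPM in Cd209a-positive cells and 1334, 1438, 1123 and 1371 CPM in the comparison cells (log2 fold change -2.18, adjusted p = 1.6e-10). Id2, an inhibitor of E proteins, was at 96.7, 124, 231 and 98.6 CPM against 1053, 1002, 866 and 996 CPM (log2 fold change -2.87, adjusted p = 7.4e-09). Batf3 was at 78.7, 55.8, 79.4 and 73.9 CPM against 171, 168, 164 and 159.6 CPM (log2 fold change -1.19, adjusted p = 4.7e-07). In each case every library of the Cd209a-positive cells lay below every library of the other class. Clec9a, the receptor for exposed actin of dead cells, was at 43.4, 70.04, 33.2 and 77.02 CPM against 173, 193, 115 and 188 CPM (log2 fold change -1.56, adjusted p = 6.3e-08), and Xcr1 was present in 0.585% of Cd209a-positive cells and 23.2% of the others. Irf4 was higher, at 39.9, 43.8, 36.9 and 34.7 CPM against 10.6, 11.6, 8.35 and 7.69 CPM (log2 fold change 2.04, adjusted p = 4.2e-07). Zeb2, a repressor that opposes Id2, was higher, at 1706, 1823, 1801 and 1754 CPM against 777, 485, 878 and 623 CPM (log2 fold change 1.44, adjusted p = 4.1e-08). Zbtb46 was lower, at 56.7, 56.6, 42.5 and 53.1 CPM against 121, 135, 95.4 and 148 CPM (log2 fold change -1.20, adjusted p = 2.5e-07). Kit, the stem cell factor receptor, was at 31.8, 26.6, 18.5 and 36.97 CPM against 117, 120.4, 91.2 and 131 CPM (log2 fold change -1.98, adjusted p = 6.8e-09).

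Monocyte genes were higher than in this class, with 4 of 7 classical monocyte markers called (Ly6c2, Csf1r, F13a1, Fn1). The gate of the comparison cells left out cells with fewer than 10 H2-Aa UMIs. Of the 101 Cd209a-positive cells below that limit, 96 carried Ly6c2. How far the gate set these differences in advance was not tested. Csf1r, the receptor of the macrophage growth factor, was at 128, 112, 119 and 122 CPM against 51.5, 41.2, 72.4 and 57.1 CPM (log2 fold change 1.20, adjusted p = 1.1e-06). Ly6c2 was at 401, 696, 307 and 426 CPM against 238, 108, 210.2 and 162 CPM (log2 fold change 1.39, adjusted p = 2.6e-04). Cx3cr1, the fractalkine receptor, was at 229, 249.8, 234 and 236 CPM against 88.00, 91.7, 97.4 and 97.4 CPM (log2 fold change 1.39, adjusted p = 6.8e-09). Each was higher in all 4 libraries. The chemokine gene Ccl9 was at 294, 341, 307 and 343 CPM against 91.1, 75.00, 94.7 and 89.1 CPM (log2 fold change 1.93, adjusted p = 1.1e-09).

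Of 20 interferon response genes, 8 were higher than in the Flt3-positive class (Ifit1, Ifit3, Ifi27l2a, Ifitm3, Rsad2, Ifi47, Rtp4, Xaf1), with a median of 0.92. Ifitm3, a membrane protein that blocks virus entry, was at 2071, 2115, 2496 and 2407 CPM against 757, 672, 905 and 799 CPM (log2 fold change 1.59, adjusted p = 2.6e-11). Against monocytes 1 of the 20 was higher (Ifit2) and 2 lower (Gbp2, Ifi204). Ccr7 and Fscn1, genes of migrating mature dendritic cells, had no UMI in Cd209a-positive cells and were at 26.8, 11.6, 6.96 and 10.3 CPM and 80.5, 23.6, 12.5 and 44.2 CPM in the comparison cells, so that they were at least 34.1-fold and 97.6-fold lower (floor of 3 counts over all Cd209a-positive cells).

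The leading genes outside the lists against this class were Mcemp1 (a mast cell and monocyte membrane protein), Adgrl3, Sirpb1a (an activating SIRP receptor) and Abca9 (a transporter), with log2 fold changes of 2.00, 2.32, 1.89 and 1.75. Tlr3, the receptor for double-stranded RNA, was lower, at 4.66, 3.39, 1.86 and 2.33 CPM against 106, 109, 49.6 and 148 CPM (log2 fold change -4.96, adjusted p = 6.1e-11). Wdfy4, needed for cross-presentation, was at 182, 228, 194 and 193 CPM against 1154, 1289, 756 and 1349 CPM (log2 fold change -2.45, adjusted p = 1.3e-10). Rab7b, Ifi205, Zfp366, Cd24a, Ccser1 and Gm36723 had log2 fold changes from -4.71 to -2.38. Retnlg, a neutrophil gene, also passed the test, at 230.2, 4.14, 284 and 6.20 CPM against 7.96, 2.79, 8.39 and 3.22 CPM (log2 fold change 4.45, adjusted p = 1.2e-07). It was high in Control and B12 only, and without the 10 cells rich in S100a8 and S100a9 it fell below the count filter and could not be tested.

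Within the Cd209a-positive cells, H2-Aa and Ly6c2 ran in opposite directions. Ly6c2, a surface protein of classical monocytes, was present in 38.2, 60.5, 48.4 and 43.6% of cells (52, 115, 45 and 41 cells). In B cells 14.9% held a Ly6c2 UMI, at a lower median depth of 5321 UMIs, and at 4000 UMIs per cell the shares were 31.1, 49.2, 37.1 and 31.9% in Cd209a-positive cells and 13.9% in B cells. Of 61 cells with no H2-Aa UMI, 60 carried Ly6c2, and among the 164 cells with 100 H2-Aa UMIs or more the share was 18.3%. Cells with fewer than 10 H2-Aa UMIs numbered 22, 49, 15 and 15 (16.2, 25.8, 16.1 and 15.96% of each library), and 96 of these 101 carried Ly6c2. They were deeper than the rest, with a median of 16574 UMIs against 10714. The share of Ly6c2 carriers was highest in Butyrate, where the share of cells with little H2-Aa was also highest.

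**Figure D3:**
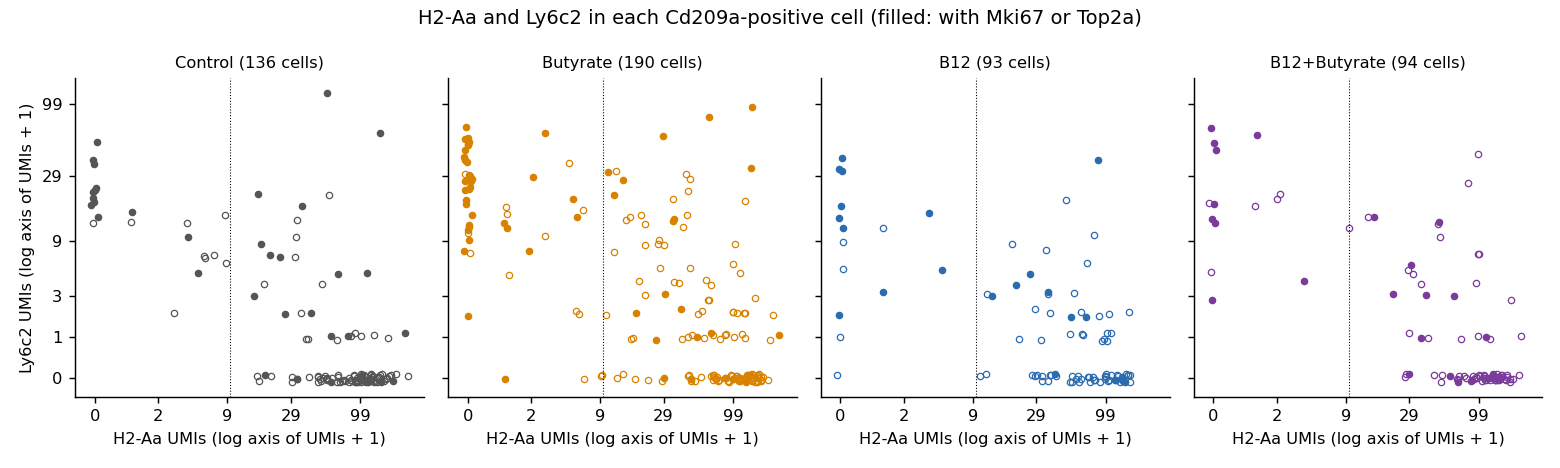
Each point is 1 Cd209a-positive cell, with its H2-Aa UMIs (x) and Ly6c2 UMIs (y), both on log axes of UMIs plus 1, by library. Points are filled where Mki67 or Top2a was present, the dotted line separates cells below 10 H2-Aa UMIs, and a small random shift separates ties. Cells without H2-Aa carry Ly6c2 and are often filled, and cells with 100 H2-Aa UMIs or more lie mainly at a Ly6c2 count of 0.

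Summed and tested by library, the 253 Ly6c2 carriers differed from the other 260 Cd209a-positive cells in 408 genes that were higher (5.43% of 7518) and 284 lower (3.78%). The split was chosen after the data were seen, so the p-values of this comparison are descriptive. The carriers were deeper, with medians of 15545.5, 13349, 11160 and 14601 UMIs against 9746, 10218, 9765.5 and 11092, and a deeper cell is more likely to show a Ly6c2 UMI. Of 11 MHC class II presentation genes, 8 were lower, with a median log2 fold change of -2.03 against -0.01 over all genes. H2-Aa was at 2104, 2383, 2952 and 2629 CPM in carriers and 9869.5, 8943, 8762 and 9755 CPM in the other cells (log2 fold change -2.03, adjusted p = 9.4e-13; per-library ratio -1.90 ± 0.27 (SD, n = 4 libraries)). H2-Oa was at 16.3, 16.7, 14.1 and 24.6 CPM against 166, 125, 83.3 and 124 CPM (log2 fold change -2.96, adjusted p = 4.2e-09). Ciita was at 131, 136, 152 and 126 CPM against 490.0, 378, 403 and 448 CPM (log2 fold change -1.78, adjusted p = 2.1e-09). Carriers and other cells did not overlap for any of the 3. Among cells without Mki67 and Top2a (24, 66, 28 and 24 carriers and 77, 66, 43 and 45 others), 7 of the class II genes were still lower.

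The dendritic genes divided the same way. Of 9 conventional dendritic cell markers, 6 were lower in Ly6c2 carriers (Flt3, Zbtb46, Dpp4, Itgax, Clec10a, Batf3), and 3 among cells without Mki67 and Top2a. Flt3 was at 124, 125, 102 and 109.9 CPM in carriers and 259.9, 237, 249.9 and 191 CPM in the others (log2 fold change -1.14, adjusted p = 7.4e-07). Clec10a was at 179.5, 179, 299 and 169 CPM against 763, 479.7, 795 and 676 CPM (log2 fold change -1.85, adjusted p = 2.3e-09). Irf8 went the other way, at 351, 520.1, 278 and 400.5 CPM against 106, 189, 131 and 134 CPM (log2 fold change 1.35, adjusted p = 5.8e-08). Cd83, a surface protein that stabilises class II molecules, was at 13.1, 33.9, 10.9 and 8.68 CPM against 159.6, 167, 94.6 and 107 CPM (log2 fold change -3.01, adjusted p = 1.1e-08). Mgl2, a lectin encoded beside Clec10a, was at 21.8, 13.97, 25.02 and 14.5 CPM against 113, 49.5, 113 and 223 CPM (log2 fold change -2.68, adjusted p = 2.1e-07). Il1b, the inflammatory cytokine, was at 4.35, 6.99, 10.9 and 7.23 CPM against 54.4, 34.6, 40.5 and 75.8 CPM (log2 fold change -2.86, adjusted p = 9.6e-07). None of these genes overlapped between the groups of cells.

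Monocyte and cell division genes were higher in the carriers. Ly6c2, which split the cells, is itself a classical monocyte marker, and genes that follow it were not left out. Of 6 classical monocyte markers, 4 were higher, among them F13a1, Fn1 and Chil3; F13a1, which encodes a chain of coagulation factor XIII, was at 982, 967, 889.7 and 1018 CPM against 139.8, 278, 432 and 341 CPM (log2 fold change 1.65, adjusted p = 5.8e-07). Cebpb was at 219.8, 187, 300.2 and 246 CPM against 50.7, 51.9, 126 and 57.7 CPM (log2 fold change 1.68, adjusted p = 1.4e-07). Of 19 S and G2/M phase genes, 17 were higher, and 8 when each cell was thinned to 4000 UMIs. Top2a, the topoisomerase of dividing cells, was at 400.4, 302, 328 and 372 CPM against 18.6, 55.6, 9.01 and 11.5 CPM (log2 fold change 3.62, adjusted p = 1.7e-08). Mki67 or Top2a was present in 25.7, 30.5, 23.7 and 26.6% of all Cd209a-positive cells. Granule genes of progenitors were higher as well: Mpo, Elane, Prtn3 and Ctsg passed the test, and Kit was lower, at 14.1, 19.3, 15.6 and 23.1 CPM against 51.97, 43.3, 22.5 and 52.7 CPM (log2 fold change -1.39, adjusted p = 2.6e-04). Prtn3 was at 744, 735, 599.6 and 114 CPM against 34.7, 53.2, 13.5 and 4.95 CPM (log2 fold change 4.16, adjusted p = 4.9e-12). Elane was at 600.2, 723, 662 and 11.6 CPM against 52.03, 13.6, 11.3 and 6.60 CPM (log2 fold change 4.34, adjusted p = 4.7e-09), a difference carried by few cells. The leading gene was Ly6a2, a member of the Ly6 family, whose reads may be assigned uncertainly (log2 fold change 4.99).

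**Figure D4:**
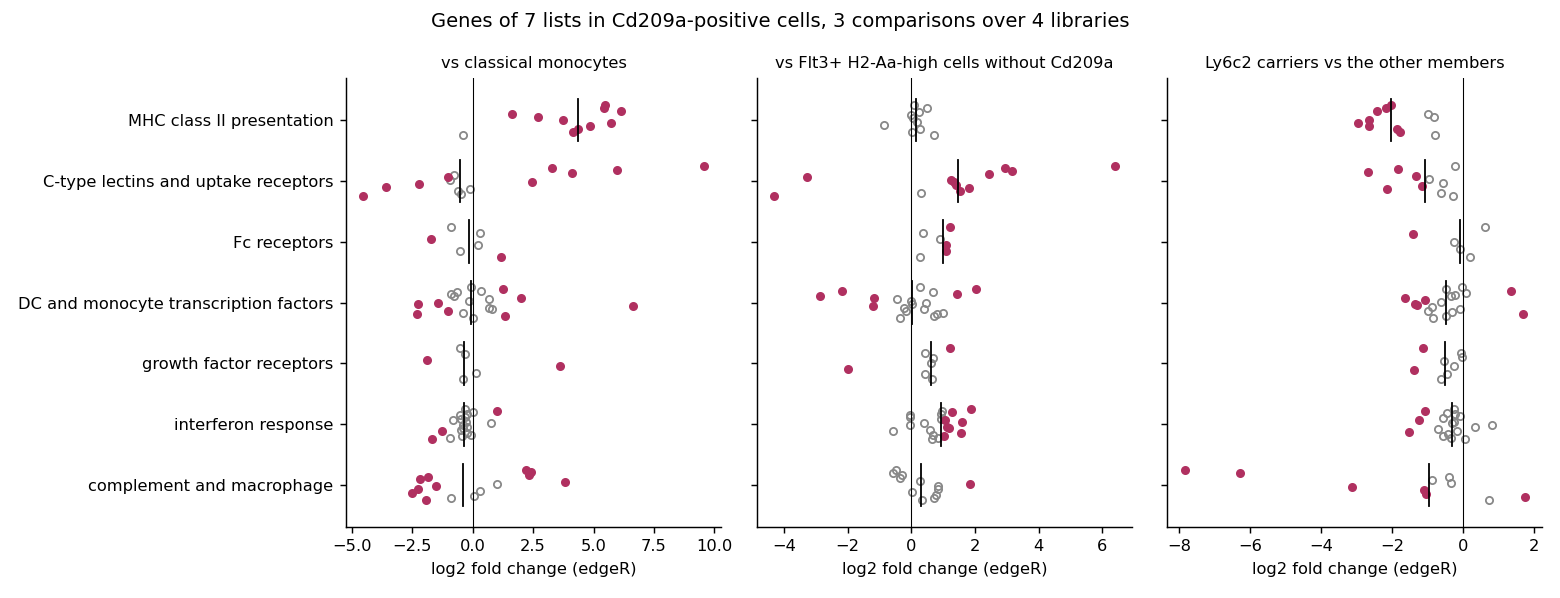
Log2 fold changes (edgeR) of the genes of 7 lists in 3 comparisons: Cd209a-positive cells against classical monocytes, against Flt3-positive H2-Aa-high cells without Cd209a, and Ly6c2 carriers against the other Cd209a-positive cells. Each point is 1 gene, filled where called (adjusted p below 0.05 and at least 2-fold), and bars mark list medians. Class II genes lie to the right in the left panel, near 0 in the middle and to the left on the right.

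Between libraries no test is possible, and log2 ratios of CPM plus 10 are given for the 3960 genes at 50 CPM or more in at least 1 of the 4 sums. For B12 over Control, 21 genes (0.53%) passed 2-fold, 12 higher and 9 lower, and for B12+Butyrate over Butyrate 16 (0.404%), 4 higher and 12 lower. No gene passed 2-fold in both of these, which share no library. Of all 3960 genes, 1984 were higher at any size in B12 than in Control and 1831 in B12+Butyrate than in Butyrate. For Butyrate over Control the number was 1894, and for B12+Butyrate over B12 it was 1798. Counts of list genes below stand beside these.

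Of 13 interferon response genes at this level, 13 were higher in B12 than in Control, with a median log2 ratio of 0.45, and 9 were higher in B12+Butyrate than in Butyrate, with a median of 0.36. The medians over all 3960 genes were 0.00 and -0.02, and no gene of the list passed 2-fold in either pair. Ifi47, an interferon-inducible GTPase, was at 39.4, 37.5, 71.98 and 60.8 CPM. Irgm1, another GTPase of that family, was at 39.4, 38.95, 64.6 and 59.3 CPM. Parp14, an ADP-ribosyltransferase, was at 86.3, 78.3, 127 and 123 CPM. Each of the 3 was higher in both libraries with B12 than in both without. They were chosen as higher in both pairs, which set part of this order, and Irgm1 and Parp14 are not in the list above. Gvin1, Klra2, Pde7b, Slc16a10, Gm56663 and Gm35154 were also among the genes chosen as most raised in both pairs.

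Rel, a subunit of NF-kB, was among the genes chosen as most lowered, at 276, 294, 189 and 217 CPM. The 6 measured genes of NF-kB and its feedback had median log2 ratios of -0.45 and -0.32 in the 2 pairs, with 2 and 1 of the 6 higher. Plek, a substrate of protein kinase C in platelets and leukocytes, was at 393, 387, 287 and 267 CPM. Pecam1, an adhesion molecule, was at 49.8, 56.9, 33.2 and 37.7 CPM. Gm47283, Cenpp, Lrrc58, Slpi, Kif13a, Glipr1 and Ctnnd2 were the remaining genes chosen on the lower side, with a smaller log2 change of at most 0.83 in size. All of these differences rest on single libraries of pooled mice.

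For butyrate, 18 genes (0.455%) passed 2-fold in Butyrate over Control, 4 higher and 14 lower, and 35 (0.884%) in B12+Butyrate over B12, 7 higher and 28 lower. In both pairs, 0 genes passed 2-fold upwards and 5 downwards: Retnlg, S100a9, Ifitm1, S100a8 and Gngt2. Retnlg was at 229, 4.12, 282 and 6.16 CPM. S100a9 was at 1439, 338, 2193 and 236 CPM. Both are neutrophil genes, and 88.5% of the S100a8 and S100a9 UMIs of B12 came from the 3 cells named above. The sum of neutrophil markers was also lower with butyrate in monocytes and in the Flt3-positive class. Across the libraries, 10 cells (6, 1, 3 and 0) were rich in S100a8 and S100a9. Without these 10 cells the log2 ratio of S100a8 was 0.19 for Butyrate over Control. That of Retnlg was 0.43 for B12+Butyrate over B12, so that both changed direction.

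Gngt2, a G protein gamma subunit of nonclassical monocytes, was at 192, 74.2, 185 and 82.4 CPM, lower in both libraries with butyrate. Without the S100a8-rich and S100a9-rich cells its log2 ratios were -1.26 and -1.12. Ifitm1, an interferon-inducible membrane protein, was at 110.0, 19.1, 74.7 and 16.2 CPM, with ratios of -2.01 and -1.53 without them. Ifit2, an interferon-inducible protein, was at 82.8, 36.3, 105 and 54.7 CPM. In each of the 3 genes both libraries with butyrate lay below both without. They were chosen as lower in both pairs, which set part of this order. Of 13 measured interferon response genes, 6 were higher and 7 lower in Butyrate than in Control (median log2 ratio -0.002). For B12+Butyrate over B12, 2 were higher and 11 lower (-0.16). On the higher side, Clec9a was at 43.4, 70.04, 33.2 and 77.02 CPM. Aff3, a nuclear protein of lymphoid cells, was at 84.5, 141, 71.98 and 114 CPM. Fhit, Plec, Ube4b, Upb1, Setbp1, Rdm1 and Kctd14 were the remaining genes chosen upwards, and Basp1, Gm5150, Lcn2 and Ddr1 downwards.

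MHC class II genes were lower in Butyrate, the library with the highest share of Ly6c2 carriers. Of 10 measured, 0 were higher in Butyrate than in Control (median log2 ratio -0.38), 9 were higher in B12+Butyrate than in Butyrate (0.39), 9 in B12+Butyrate than in B12 (0.18) and 1 in B12 than in Control (-0.12). Over all 3960 genes the numbers higher were 1894, 1831, 1798 and 1984 in the same order of pairs. With Ly6c2 carriers given the same share in each library, the class II medians were -0.08, 0.12, 0.11 and -0.06. Of 9 measured uptake receptors, 0 were higher in Butyrate than in Control (median -0.34) and 2 in B12+Butyrate than in B12 (-0.27), and these medians were -0.30 and -0.34 at equal shares. Mrc1, at 188, 113, 245 and 225 CPM, was lowest in Butyrate. Clec4a3 was likewise lowest there, at 215, 91.02, 245 and 161 CPM.

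Genes of cobalamin use and butyrate sensing were measured at low levels. Mtr, the cobalamin-dependent methionine synthase, was at 35.3, 36.7, 47.1 and 40.8 CPM, and Tcn2, which carries cobalamin in blood, at 17.9, 19.5, 23.99 and 12.3 CPM. The counting intervals of both overlapped between all libraries. Of 11 cobalamin genes 1 reached 50 CPM, Lmbrd1, a lysosomal cobalamin exporter, at 51.5, 55.1, 46.1 and 57.8 CPM. Ffar2, a receptor for short-chain fatty acids, was at 31.8, 10.9, 32.3 and 3.85 CPM, lower in both libraries with butyrate than in both without. The Flt3-positive class had 15.8, 9.72, 24.4 and 3.85 CPM of Ffar2 and monocytes 1.28, 0.385, 2.75 and 0.194 CPM, in the same order of libraries with and without butyrate. The sums of neutrophil markers were also lower with butyrate in each of these classes, and their part in the Ffar2 values was not tested. Hdac1 and Hdac8, deacetylases of the class that butyrate inhibits, were at 72.9, 77.9, 80.3 and 79.3 CPM and 58.5, 56.2, 78.4 and 47.8 CPM. Stress and immediate early genes can follow handling. They were higher than Control in 15 of 15 for B12 (median 0.20) and in 15 of 15 for Butyrate (0.22). Over all 3960 genes, 1984 and 1894 were higher. B12+Butyrate was lower than B12 in 13 of 15 (median -0.19) and lower than Butyrate in 12 of 15 (-0.11). With 1 library per group, handling, mice and treatment cannot be told apart.

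**Figure D5:**
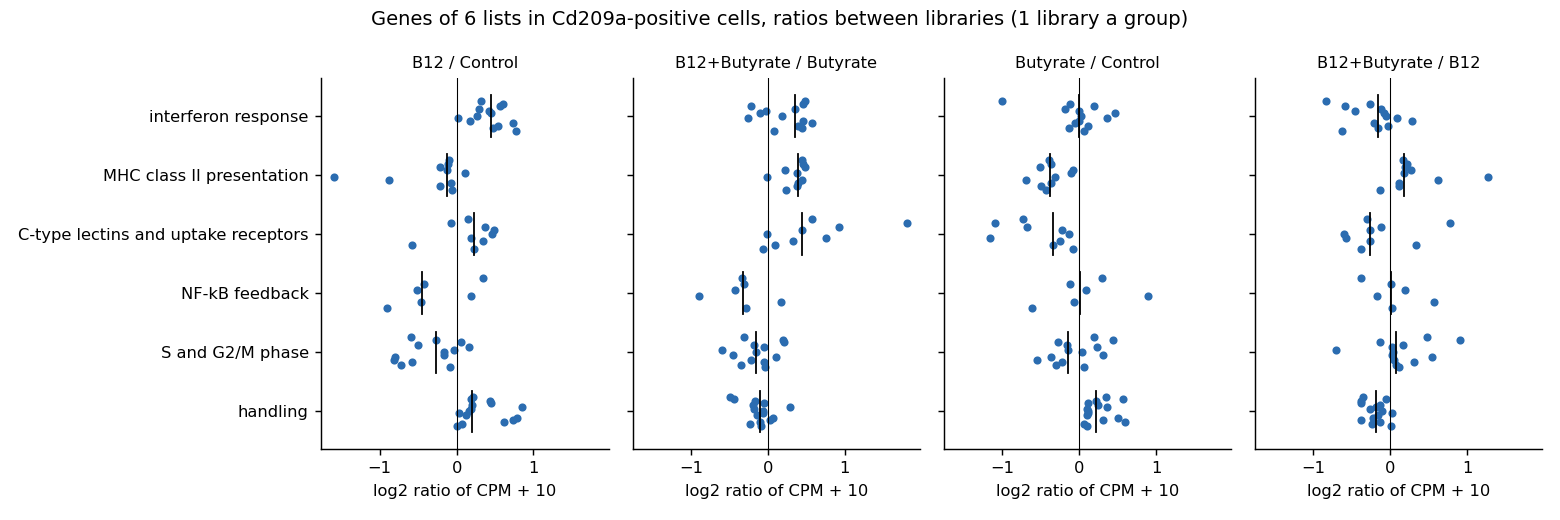
Log2 ratios of CPM plus 10 between libraries for the Cd209a-positive cells, by gene list (y) in 4 pairs of libraries (panels). Each point is 1 gene at 50 CPM or more in at least 1 library, and bars mark list medians; each library is 1 pool and there is no error bar. Interferon response genes lie to the right of 0 in B12 over Control, and class II genes to the left in Butyrate over Control.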

How the data were processed

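Each of the 4 libraries was made from live CD45.2+ marrow cells with the 10x Genomics Chromium 3' kit (v3.1), per the labels. The authors deposited UMI counts per gene and barcode, whose file headers name Cell Ranger 7.1.0, on GRCm39 per the submitters' processing notes. Ambient RNA was not subtracted here. Cells were selected on Cd209a, Camp, Ngp, Cd79a and Siglech as stated, and the cells and gene lists were chosen with earlier results of these data known. Called doublets (simulated doublets, 50 neighbours, 0.8% per 1000 cells) were kept, as the rule does. Raw counts were summed per library and class and fitted with edgeR 4.0.16 (TMM, filterByExpr, quasi-likelihood, library as block), with DESeq2 1.42.0 as an alternative; the pipeline was tested on simulated data. CPM of the fits leave out the gate genes and differ slightly from the CPM of the lists. Named genes were the 10 highest and 10 lowest called genes at 100 CPM or more, the 10 genes with the largest smaller change in both pairs of libraries, and genes of the lists. All samples had n = 1 library per group, so comparisons between libraries have no test. Some genes that met these rules are not reported here. The planned dendritic cell gate (21, 35, 13 and 16 cells) and the C1qa carriers (9 cells) left under 20 cells in a library and were not fitted; the Flt3-positive and Ly6c2 comparisons replaced them after the data were seen. Counting intervals limit every value to its depth, given with the report's opening.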

Additional observations from a re-analysis of the deposited data

Results flagged for a closer look

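The share of Cd209a-positive cells that carry Ly6c2 had ratios on opposite sides of 1 in pairs of libraries under the same treatment. The ratio of shares was 1.27 for B12 to Control (0.938 to 1.71) and 0.721 for B12+Butyrate to Butyrate (0.557 to 0.932). It was 1.58 for Butyrate to Control (1.24 to 2.02) and 0.901 for B12+Butyrate to B12 (0.660 to 1.23). The share of cells with fewer than 10 H2-Aa UMIs had ratios of 1.59 for Butyrate to Control (1.01 to 2.51) and 0.989 for B12+Butyrate to B12 (0.514 to 1.91). In each case 1 of the 2 counting intervals included 1, so a change of direction is not shown. Each pair is 1 library against 1 library, and the differences between pairs were not tested.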

How the results depend on the processing

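No paired analysis was possible because each group had 1 library; the fits between classes used the library as a block. The ratios of shares kept their direction and moved by less than their counting intervals under all alternatives tried. The ratio of B12 to Control was 0.932 over cells with Camp and Ngp below 0.5%, and its interval (0.718 to 1.21) then included 1. With the cells chosen again after thinning to 4000 UMIs, Ly6c2 carriers were 22.8, 38.3, 29.8 and 25.0% of the cells, and the share with C1qa in B12+Butyrate was 0%. Against monocytes, genes called higher numbered 588 at 4000 UMIs per cell and 622 without cycling cells. Against the Flt3-positive class, thinning left 126 higher and 123 lower, and the fit without a filter called 367 lower. For Ly6c2 carriers, genes called higher numbered 623 without a filter, 120 thinned, 85 without cycling cells and 115 with carriers taken after thinning; those called lower numbered 95, 105 and 100 under the last 3. Leaving out 1 library gave 969 to 1096 higher and 631 to 679 lower against monocytes, 237 to 282 and 243 to 280 against the Flt3-positive class, and 360 to 445 and 232 to 339 for Ly6c2 carriers; a library left out leaves 3. The percent of genes past 2-fold was 0.831 (Cd209a at 3 UMIs or more) and 0.909 (pseudocount of 1 CPM) for B12 over Control. For B12+Butyrate over Butyrate it was 0.177 without called doublets, 0.252 without cells rich in S100a8 and S100a9, and 0.682 with a pseudocount of 1 CPM. It was 0.808 with that pseudocount for Butyrate over Control, and 0.555 without the S100a8-rich cells for B12+Butyrate over B12. Without those cells S100a8 in Butyrate over Control (0.19) and Retnlg in B12+Butyrate over B12 (0.43) reversed; the cause was not tested. Of the named genes, 537 values between libraries and 646 values of the fits kept their direction and call or moved less than their error, 21 moved and 2 reversed. The number of cells, 93 to 190 per library, limits genes below about 50 CPM.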

Other observations

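These genes were chosen after their values were seen. Ccl4, a chemokine, was at 151, 35.96, 163 and 103 CPM in Cd209a-positive cells, at 161, 35.6, 247 and 89.7 CPM in the Flt3-positive class and at 40.7, 6.93, 52.8 and 8.74 CPM in monocytes. In each class both libraries with butyrate lay below both without it. Tnf, the inflammatory cytokine, was at 66.6, 95.1, 129 and 126 CPM, 35.6, 76.4, 98.8 and 83.3 CPM and 60.6, 115, 117 and 107 CPM in the same 3 classes, lowest in Control in each. Apoe, an apolipoprotein of macrophages, was at 116, 174, 516 and 210.3 CPM, 255, 162, 579 and 311 CPM and 638, 789.9, 985 and 689.9 CPM, highest in B12 in each. The classes share their libraries, so agreement between them is no replicate.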
